A study of Homo sapiens with 282 samples.

Results

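The genes described here are 34 listed targets of the transcription factor p53 with roles in DNA repair, metabolism, stress signalling and cell death. They were listed by name, with earlier results of these data known. Of the 34, 33 were found among the 18239 genes of the array annotation (TNFRSF10D-AS1 was not). The cells were OCI-Ly3, an established human line of diffuse large B-cell lymphoma, grown in multi-well plates and exposed to 1 of 14 compounds for 6, 12 or 24 h. RNA from each well was hybridised to a GeneChip HT HG-U219 array, which measures the transcript of a gene with 1 or more sets of short probes. The 282 arrays comprised 94 for each time.

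The DNA-damaging groups were doxorubicin at 0.03 and 0.101 µM, camptothecin at 0.01 and 0.31 µM, etoposide at 0.811 and 0.812 µM and mitomycin C at 0.553 and 2.56 µM, each with 3 arrays at each time. Methotrexate, an antifolate, was used at 100 µM with 6 arrays at each time, and is named apart from them. The other groups were cycloheximide at 0.264 and 5 µM, H-7 at 12.4 and 20.2 µM, trichostatin A at 0.114 and 0.143 µM, rapamycin at 13.8 and 22 µM, geldanamycin at 0.001 and 0.032 µM, monastrol at 50 and 100 µM, blebbistatin at 10 and 100 µM, vincristine at 0.005 and 0.01 µM and aclacinomycin A at 0.036 and 0.105 µM, with 3 arrays each, and untreated medium with 2 arrays at each time. The vehicle control was 1% DMSO, with 8 arrays at each time. All groups were of 1 cell line with the same genotype. Nothing in the labels ties the replicates to independent cultures, and p-values therefore measure the spread between these wells, which may be technical. Every comparison of 1 time shared its DMSO arrays.

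p53 is held at a low level in unstressed cells by the ubiquitin ligase MDM2. DNA breaks and stalled replication forks activate kinases that free p53 from MDM2, and p53 then binds paired decamer motifs near its target genes and raises their transcription. The best known outcomes are cell cycle arrest and apoptosis, but many targets repair DNA, supply deoxynucleotides, limit oxidative damage, restrain growth signalling or dampen p53 itself. Doxorubicin and etoposide trap topoisomerase II on DNA, camptothecin traps topoisomerase I, mitomycin C crosslinks DNA and methotrexate blocks the folate cycle on which thymidine synthesis depends.

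A promoter motif search is shown first, because 3 members carried a match to the p53 element, with 0 to 2 mismatches, within 250 bases of a start site. RefSeq promoter windows of 300 bases (build GRCh38.p14, 250 bases before to 50 after a start site) were found for 27 of the 33 members, in 35 windows. The search used the published p53 consensus, which reads the same on both strands, as 2 decamers with a spacer of up to 13 bases and up to 2 mismatches. It matched 8.57% of member windows and 2.93% of all 35116 windows. A match is a description of letters, and no binding was measured. DDB2, which recognises ultraviolet lesions in chromatin for nucleotide excision repair, had a match with 0 mismatches and a spacer of 1 base, from 6 to 26 bases after a start site, in chr11:47214724-47214999 on the plus strand. AEN, an exonuclease that degrades DNA in apoptosis, had a match with 2 mismatches at positions -34 to -15 relative to the start, in chr15:88621090-88621339 on the plus strand. DCP1B, a cofactor of mRNA decapping, had a match with 2 mismatches at positions -212 to -193 relative to the start, in chr12:2004458-2004707 on the minus strand. The sequences run 5′ to 3′ and the decamers are in capitals.
DDB2: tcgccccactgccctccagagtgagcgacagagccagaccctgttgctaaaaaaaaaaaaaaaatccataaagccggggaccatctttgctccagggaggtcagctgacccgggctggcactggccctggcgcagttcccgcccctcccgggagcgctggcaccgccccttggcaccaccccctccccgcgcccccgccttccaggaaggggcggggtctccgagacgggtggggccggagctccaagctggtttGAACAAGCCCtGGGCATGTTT
AEN: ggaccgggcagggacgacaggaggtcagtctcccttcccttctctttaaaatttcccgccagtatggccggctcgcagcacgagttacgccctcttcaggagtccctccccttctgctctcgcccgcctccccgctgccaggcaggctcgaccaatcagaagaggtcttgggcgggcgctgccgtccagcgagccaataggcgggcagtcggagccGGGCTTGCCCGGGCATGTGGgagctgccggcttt
DCP1B: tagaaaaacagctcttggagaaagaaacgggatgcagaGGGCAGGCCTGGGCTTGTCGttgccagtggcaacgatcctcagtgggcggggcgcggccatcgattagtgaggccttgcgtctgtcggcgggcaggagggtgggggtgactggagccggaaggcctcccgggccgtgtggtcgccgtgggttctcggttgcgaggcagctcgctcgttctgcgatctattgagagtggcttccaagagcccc

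Values are log2 intensities. Across the arrays of 6 h the upper quartile of all probe sets lay between 8.15 and 8.35, and no array was called low-signal (upper quartile under 8, or an ACTB 3′ minus 5′ difference above 2). At 12 h it ranged from 6.91 to 8.36 with 31 low-signal arrays, among them 4 of the 8 DMSO arrays, and at 24 h from 6.92 to 8.29 with 17. Over all genes, 3 treated against 8 DMSO arrays gave a typical (median) standard error of 0.0988 at 6 h, which was 0.299 for 12 h and 0.276 for 24 h. The 6 h results therefore come first, and later counts are given with and without the low-signal arrays. In these bulk wells, fewer cells of a type and less RNA per cell cannot be told apart. For the label, levels of different probe sets do not measure the relative expression of their genes, so ranks over the array are given only as a description. The 3 activated B cell and plasma cell markers (IRF4, PRDM1 and CD44) ranked between the 89.5th and 99.4th percentile of mean intensity, while 6 measured markers of the general B cell lineage ranked between the 6.87th and the 59th. Of these, MS4A1, CD79A, CD79B, CD22 and BANK1 stood no higher than markers of T cells, myeloid cells, fibroblasts and epithelium, which reached the 47.1th percentile at most, and PAX5 stood above them. The members SPATA18, EDA2R, PGF, CMBL and ABCA12 ranked in the lower range of the array (12.97th to 36.07th percentile), and the next was TP53INP1 at the 51.4th.

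At 6 h the members rose under all 4 DNA-damaging compounds and hardly moved under methotrexate. In 33 members, doxorubicin at 0.101 µM raised 24 and lowered 0 (3.40% of all genes rose), and etoposide at 0.812 µM raised 24 and lowered 0 (2.48% of all genes rose). Camptothecin at 0.31 µM raised 26 (27% of all genes rose) and lowered 2 (19.9% of all genes fell). Mitomycin C at 2.56 µM raised 20 and lowered 0 (1.88% of all genes rose). Methotrexate raised 1 of the 33 (1.17% of all genes rose). Calls required an adjusted p below 0.05 in two-sided limma tests with Benjamini-Hochberg adjustment over 18239 genes. The median member changed by 0.59 under doxorubicin, 0.89 under camptothecin, 0.48 under etoposide, 0.27 under mitomycin C and 0.02 under methotrexate on the log2 scale. The median over all genes was 0.01, 0.06, -0.00333, -0.01 and 0.03 in the same comparisons.

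**Figure D1:**
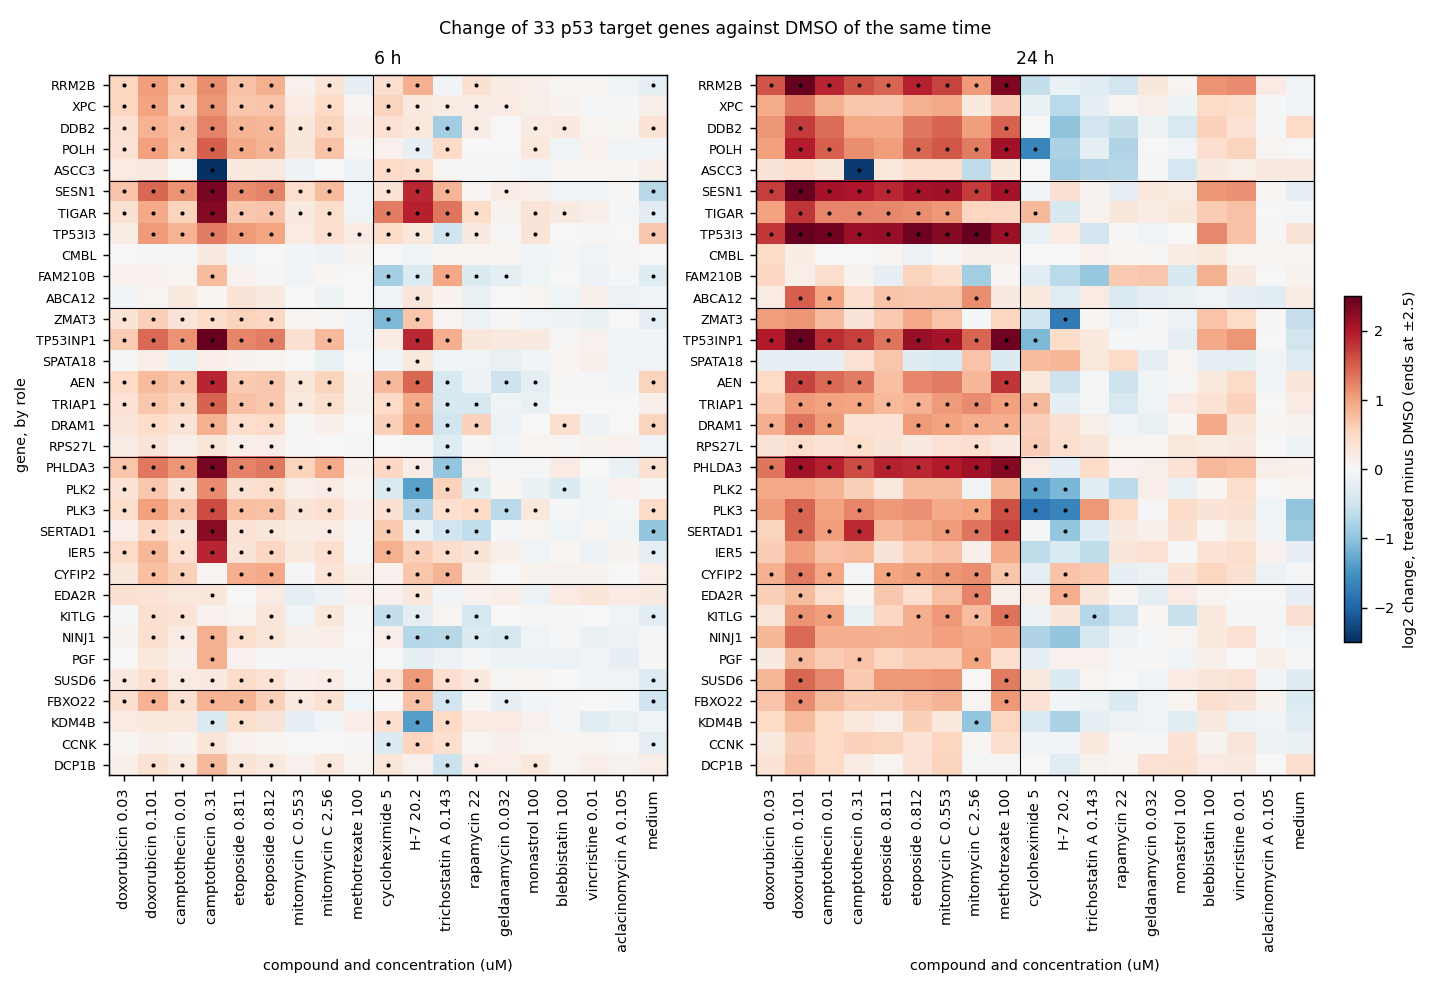
Log2 change against DMSO of the same time for 33 members (rows, grouped by role) in 18 compound groups and untreated medium (columns) at 6 h (left) and 24 h (right). Red is higher than DMSO and blue lower, the colour ends at a change of 2.5 either way, and dots mark adjusted p below 0.05 (limma, all arrays). At 6 h the columns of the DNA-damaging compounds are red in most rows, ASCC3 under camptothecin 0.31 µM is the deepest blue, and methotrexate is pale until 24 h.

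Among the 5 repair and nucleotide supply genes, RRM2B, XPC, DDB2 and POLH rose at 6 h under each of the 4 DNA-damaging compounds at the higher concentration, and ASCC3 did not. RRM2B encodes the small ribonucleotide reductase subunit that supplies deoxynucleotides outside S phase. RRM2B had log2 levels of 10.73, 10.71 and 10.77 under doxorubicin and 10.57, 10.60 and 10.55 under etoposide, against 9.51, 9.68 and 9.84 (lowest, median and highest of 8) in DMSO. All 6 treated arrays lay above all DMSO arrays. The log2 change was 1.04 ± 0.08 (SE, adjusted p = 1.62e-18) under doxorubicin and 0.88 ± 0.08 (adjusted p = 6.05e-15) under etoposide. POLH encodes the translesion polymerase that copies past ultraviolet lesions. POLH stood at 8.48, 8.29 and 8.40 under mitomycin C, against 7.25, 7.70 and 7.89 in DMSO, with no overlap and a change of 0.71 ± 0.09 (adjusted p = 4.64e-10). DDB2, whose promoter match is shown above, stood at 10.62, 10.66 and 10.66 under mitomycin C, against 9.82, 10.125 and 10.20 in DMSO. The DDB2 groups did not overlap, and its change was 0.55 ± 0.05 (adjusted p = 1.33e-14). XPC, which senses helix distortion in the same repair pathway, changed by 1.00 under doxorubicin, 1.10 under camptothecin, 0.72 under etoposide and 0.51 under mitomycin C, and was called in all 4.

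SESN1, TIGAR and TP53I3 led the redox and metabolic members. SESN1, a sestrin that restrains mTORC1 and lowers oxidative stress, had log2 levels of 9.82, 9.77 and 9.69 under doxorubicin and 10.64, 10.71 and 10.78 under camptothecin. Under etoposide SESN1 had 9.54, 9.57 and 9.61 and under mitomycin C 9.10, 9.02 and 9.27, against 8.17, 8.34 and 8.45 in DMSO. Every treated array was above every DMSO array, and camptothecin gave the highest values. The change was 1.43 ± 0.06 under doxorubicin (adjusted p = 1.64e-34), 2.38 ± 0.06 under camptothecin (adjusted p = 1.60e-52), 1.24 ± 0.06 under etoposide (adjusted p = 9.85e-31) and 0.80 ± 0.06 under mitomycin C (adjusted p = 1.43e-18). TIGAR lowers fructose 2,6-bisphosphate and so slows glycolysis. TIGAR had 11.50, 11.49 and 11.57 under camptothecin, against 9.03, 9.24 and 9.34 in DMSO, far apart, with a change of 2.30 ± 0.06 (adjusted p = 5.76e-52). The size depended on the probe set, since the second TIGAR probe set changed by 0.74 and the mean of both by 1.52. TP53I3, a quinone oxidoreductase linked to reactive oxygen species, had 9.77, 9.62 and 9.69 under doxorubicin and 9.68, 9.55 and 9.62 under etoposide, against 8.54, 8.62 and 8.75 in DMSO. Its groups did not overlap, with changes of 1.06 ± 0.06 (adjusted p = 4.25e-25) under doxorubicin and 0.99 ± 0.06 (adjusted p = 2.95e-23) under etoposide. The other 3 of these 6 genes, the hydrolase gene CMBL, FAM210B and ABCA12, had 1 call among the 9 comparisons, FAM210B under camptothecin 0.31 µM at 0.80.

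In the cell death, mitochondrial and autophagy group of 7, all but SPATA18 rose under doxorubicin, camptothecin and etoposide, and 3 rose under mitomycin C. TP53INP1 promotes autophagy and p53 phosphorylation. TP53INP1 had log2 levels of 7.79, 7.82 and 7.70 under doxorubicin and 8.94, 8.99 and 9.08 under camptothecin. Under etoposide TP53INP1 had 7.55, 7.69 and 7.63 and under mitomycin C 7.07, 7.18 and 7.21, against 6.05, 6.37 and 6.55 in DMSO. No treated array reached down to the DMSO range. The change was 1.42 ± 0.12 (adjusted p = 7.18e-18), 2.66 ± 0.12 (adjusted p = 4.28e-36), 1.28 ± 0.12 (adjusted p = 1.56e-15) and 0.81 ± 0.12 (adjusted p = 1.74e-07) for doxorubicin, camptothecin, etoposide and mitomycin C in that order. A second, dimmer TP53INP1 probe set changed by 0.16 under doxorubicin and 0.23 under camptothecin, and with the mean of both the changes were 0.79, 1.44, 0.66 and 0.39, all still called. AEN had 10.06, 10.02 and 9.99 under camptothecin and 8.73, 8.64 and 8.61 under mitomycin C, against 7.94, 8.12 and 8.24 in DMSO. AEN was higher in each of those arrays than in any DMSO array, by 1.91 ± 0.06 (adjusted p = 1.54e-44) under camptothecin and 0.55 ± 0.06 (adjusted p = 1.46e-10) under mitomycin C. ZMAT3, an RNA-binding zinc finger protein, rose by 0.59 under doxorubicin, 0.47 under camptothecin and 0.52 under etoposide, and its change of 0.03 under mitomycin C was not called. The lysosomal membrane protein gene DRAM1, the small apoptosis inhibitor TRIAP1 and the ribosomal protein paralog RPS27L rose by 0.46, 0.67 and 0.33 under doxorubicin. A second DRAM1 probe set of nearly the same brightness changed by 0.47 under doxorubicin. Under camptothecin it changed by 0.01, against 0.88 for the probe set used, so the DRAM1 rise there depended on the probe set. RPS27L shares much of its sequence with RPS27, so its probes may cross-react.

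All 6 members of the kinase and signalling group rose under doxorubicin, etoposide and mitomycin C, and 5 of 6 under camptothecin. PHLDA3, which competes with AKT for membrane lipids, had log2 levels of 10.31, 10.42 and 10.52 under doxorubicin and 11.47, 11.49 and 11.44 under camptothecin. PHLDA3 had 10.47, 10.45 and 10.35 under etoposide and 9.93, 10.04 and 10.11 under mitomycin C, against 8.81, 9.115 and 9.29 in DMSO. The PHLDA3 groups were again apart. Its change was 1.32 ± 0.08 (adjusted p = 6.41e-26) under doxorubicin, 2.37 ± 0.08 (adjusted p = 4.21e-45) under camptothecin, 1.32 ± 0.08 (adjusted p = 4.03e-26) under etoposide and 0.93 ± 0.08 (adjusted p = 8.23e-17) under mitomycin C. PLK3, a stress-responsive polo-like kinase, had 9.63, 9.45 and 9.52 under doxorubicin, against 8.19, 8.5 and 8.71 in DMSO, a change of 1.03 ± 0.08 (adjusted p = 3.73e-20) without overlap. SERTAD1, a cofactor of CDK4 and E2F, had 11.77, 11.74 and 11.67 under camptothecin, against 9.33, 9.505 and 9.53 in DMSO. No SERTAD1 array overlapped DMSO, and its change under camptothecin was 2.25 ± 0.06 (adjusted p = 2.03e-52). CYFIP2, a subunit of the actin-regulating WAVE complex, had 10.21, 10.12 and 10.24 under etoposide, against 9.10, 9.245 and 9.40 in DMSO, a change of 0.94 ± 0.07 (adjusted p = 1.67e-18) with no overlap. IER5 and PLK2, an immediate early gene and another polo-like kinase, rose by 0.84 and 0.67 under doxorubicin.

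The ligand, receptor and surface group and the ubiquitin, chromatin and RNA group moved less. Under doxorubicin, the stem cell factor gene KITLG, the adhesion and membrane rupture gene NINJ1 and SUSD6 rose by 0.40, 0.41 and 0.42, while the ectodysplasin receptor gene EDA2R and the placental growth factor gene PGF changed by 0.35 and 0.26 and were not called. FBXO22, an F-box subunit of a ubiquitin ligase, rose by 0.87 and DCP1B by 0.37. The histone demethylase gene KDM4B and the CDK12 partner cyclin K (CCNK) changed by 0.24 and 0.12 and were not called. Over the 9 comparisons of DNA-damaging compounds and methotrexate at 6 h, AEN, DDB2, FBXO22, PHLDA3, PLK3, SESN1, TIGAR and TRIAP1 were each called higher in 8, all but methotrexate. ABCA12, CMBL and SPATA18 were called in 0 of the 9.

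**Figure D2:**
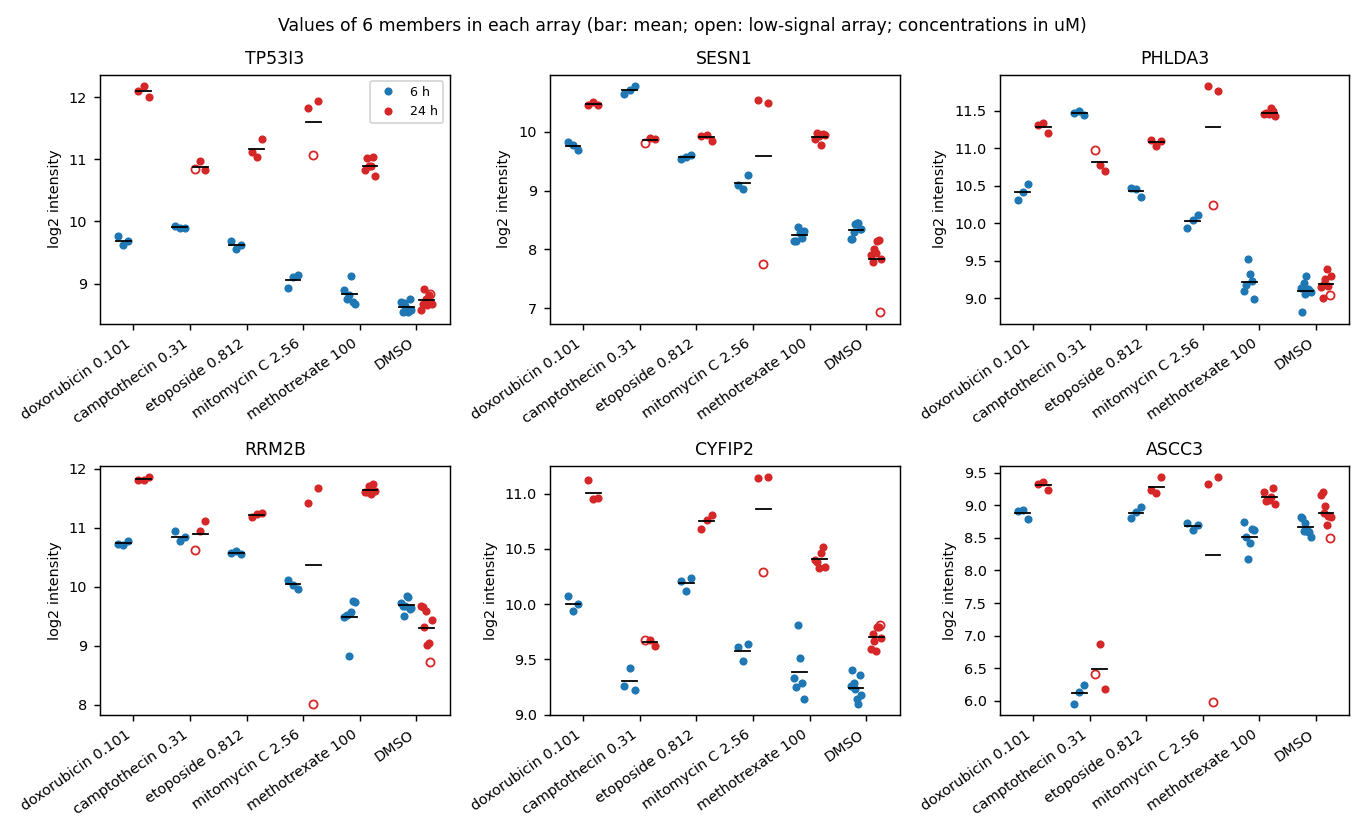
Log2 intensity of 6 members in every array of 5 treated groups and of DMSO at 6 h (blue) and 24 h (red); bars are means and open circles low-signal arrays. TP53I3, SESN1, PHLDA3 and RRM2B sit above DMSO at both times under the DNA-damaging compounds, except for the low-signal array of mitomycin C at 24 h in SESN1 and RRM2B, methotrexate is near DMSO at 6 h and above it at 24 h, the ASCC3 probe set used drops to about 6 under camptothecin, and the open circle of mitomycin C at 24 h lies below its 2 partners in all 6 panels.

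Under camptothecin at 0.31 µM 2 members fell at 6 h, a smaller share than that of all genes. ASCC3, a helicase subunit that opens alkylated DNA for repair, fell at 6 h to log2 levels of 5.96, 6.14 and 6.25 under camptothecin 0.31 µM, against 8.52, 8.605 and 8.82 in DMSO. The groups were more than 2 units apart, with a change of -2.54 ± 0.08 (adjusted p = 3.12e-45). That is the value of 1 of the 4 ASCC3 probe sets, the brightest, and the other 3 disagreed with it in size or direction, at 0.39, -0.08 and -0.82. The mean of the 4 gave a change of -0.76 (adjusted p = 7.33e-21), so the size of the fall depended on the probe set. KDM4B had 8.37, 8.55 and 8.08 under camptothecin, against 8.53, 8.71 and 8.95 in DMSO. The KDM4B ranges overlapped, although the change of -0.37 ± 0.11 passed the test (adjusted p = 0.00214). Without replicate 3 of the treated groups the KDM4B call was lost and 1 member fell, and the mean of the 4 KDM4B probe sets, at -0.11, was not called (adjusted p = 0.206). CYFIP2 had 9.26, 9.42 and 9.22 under camptothecin, against 9.10, 9.245 and 9.40 in DMSO, and was not called. Markers of other cell types were also called under this treatment, which raised 27% of all genes and lowered 19.9%. Of these markers, 2 of 3 T cell, 1 of 3 myeloid and 1 of 3 epithelial markers rose, and 1 myeloid marker fell. Among the activated B cell markers 2 of 3 fell. With 3 markers of a type, such counts cannot be told from the shares of all genes. The part of these marker changes in the members' changes was not tested.

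Camptothecin at 0.31 µM was set against etoposide at 0.812 µM to compare topoisomerase I and II poisons, at concentrations that differ. At 6 h, 22 members were higher under camptothecin (23.3% of all genes were higher) and 4 were lower (17.9% of all genes were lower). The widest positive differences were 1.96 ± 0.07 in SERTAD1 (adjusted p = 1.26e-41) and 1.59 ± 0.07 in TIGAR (adjusted p = 5.62e-34). The 4 lower members were ASCC3 (in the probe set used) by -2.77 ± 0.10 (adjusted p = 1.18e-41), CYFIP2 by -0.89 ± 0.09 (adjusted p = 1.68e-14), KDM4B by -0.69 ± 0.13 (adjusted p = 3.35e-06) and KITLG by -0.21 ± 0.08 (adjusted p = 0.0192). At 24 h 3 members were lower and 0 higher (2.74% of all genes were lower), namely ASCC3 by -2.80 ± 0.58, KITLG by -1.11 ± 0.27 and CYFIP2 by -1.09 ± 0.29, with adjusted p = 0.000579, 0.00589 and 0.0158. KITLG had 10.10, 10.31 and 10.36 under camptothecin and 11.35, 11.33 and 11.41 under etoposide, against 10.14, 10.455 and 10.73 in DMSO. KITLG was thus above DMSO in every etoposide array and within its range in 2 of the 3 camptothecin arrays. Without the low-signal arrays 13 members were lower (11.3% of all genes were lower) and SERTAD1 was higher by 0.96 ± 0.09. The count of lower members at 24 h was 1 without replicate 1 and 1 without replicate 3 of the treated groups.

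The members that were lower under camptothecin are long genes. ASCC3 spans 373 kb, KDM4B 184 kb, CYFIP2 129 kb and KITLG 87.7 kb. Across the 33 members, the Spearman correlation of gene length with the 6 h change was -0.61 under camptothecin, -0.10 under etoposide and -0.27 under doxorubicin. Over 18192 genes it was -0.40, -0.02 and -0.12 in the same comparisons. At 24 h the camptothecin value was -0.52 over the members and -0.26 over all genes. These are descriptions across genes of 1 set of arrays, which share their DMSO arrays, and genes are not independent replicates. SESN1, at 111 kb, rose by 2.38 under camptothecin, and SUSD6, at 104 kb, by 0.24. All lengths are set against the single probe set used for each gene, and that of ASCC3 is the one from which its other probe sets differ.

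**Figure D3:**
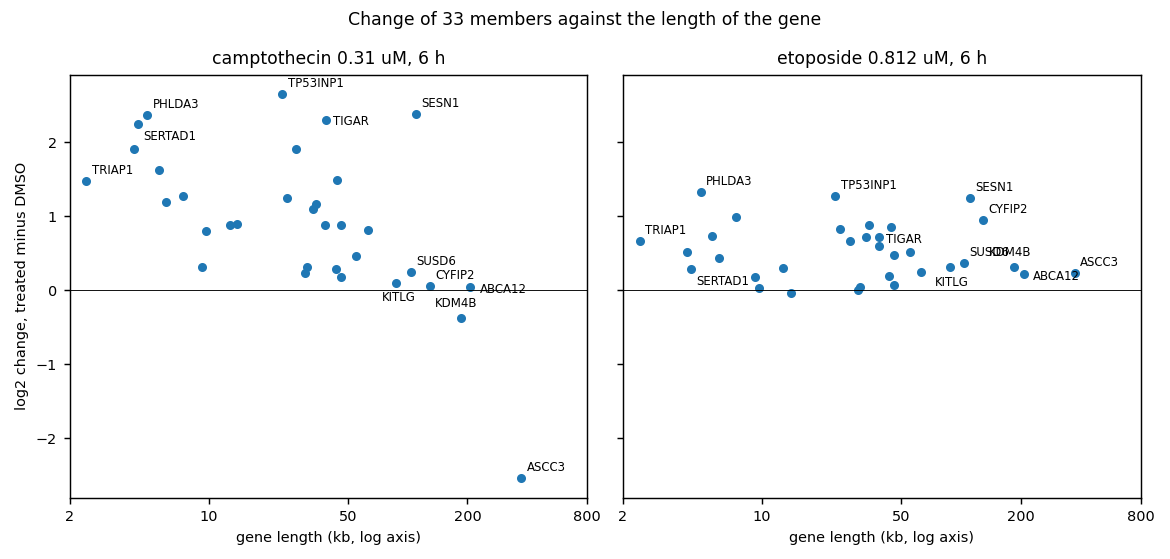
Log2 change against DMSO at 6 h (vertical axis) against gene length in kb on a log axis (horizontal axis) for 33 members under camptothecin 0.31 µM (left) and etoposide 0.812 µM (right). Each point is a gene; under camptothecin the long genes ASCC3, KDM4B, ABCA12, CYFIP2 and KITLG lie at or below 0.10, whereas SESN1 is at 2.38 and SUSD6 at 0.24, and under etoposide they lie above 0.

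Concentration was compared within each compound. For doxorubicin at 6 h, 0.03 µM raised 16 members (0.395% of all genes rose), and 19 members were higher at 0.101 than at 0.03 µM (0.762% of all genes were higher), led by TP53I3 at 0.88 ± 0.08 (adjusted p = 4.16e-15) and TP53INP1 at 0.80 ± 0.14 (adjusted p = 4.44e-05). Camptothecin at 0.01 µM raised 23 members and lowered 0 (2.09% of all genes rose). At 0.31 rather than 0.01 µM, 24 members were higher (20.9% of all genes were higher) and 4 lower (18.2% of all genes were lower). ASCC3 had log2 levels of 5.96, 6.14 and 6.25 at 0.31 µM and 8.74, 8.60 and 8.62 at 0.01 µM, a difference of -2.54 ± 0.10 (adjusted p = 9.07e-39). The ASCC3 probe set used was thus low at the higher concentration and in the DMSO range at the lower, and the other 3 lower members were KDM4B at -0.61, CYFIP2 at -0.53 and KITLG at -0.24. CYFIP2 and KITLG rose by 0.59 and 0.33 against DMSO at 0.01 µM. Mitomycin C at 0.553 µM raised 8 members (0.356% of all genes rose), and 7 were higher at 2.56 than at 0.553 µM (0.378% of all genes were higher), from DDB2 at 0.26 to POLH at 0.42. Without replicate 1, 2 or 3 of the treated groups, mitomycin C at 0.553 µM raised 4, 3 or 5 members. Etoposide at 0.811 µM raised 24 members (3.56% of all genes rose). Between the 2 near-equal etoposide concentrations 0 members differed by limma at 6 h, with 4 at an unadjusted p below 0.05.

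At 24 h the higher concentration of camptothecin no longer exceeded the lower one in the members. By limma, 3 members were lower at 0.31 than at 0.01 µM and 0 higher (2.85% of all genes were lower), and these were ASCC3 by -2.67 ± 0.58 (adjusted p = 0.00126), KITLG by -1.24 ± 0.27 (adjusted p = 0.00143) and CYFIP2 by -1.02 ± 0.29 (adjusted p = 0.0287). An unadjusted p below 0.05 was reached by 6 members. Without the low-signal arrays 12 were lower (12.0% of all genes were lower) and SERTAD1 was higher by 0.86 ± 0.09. With replicate 1 of the treated groups left out, 0 were lower. For doxorubicin at 24 h, TP53I3 was higher by 1.59 ± 0.32 (adjusted p = 0.0044) and ABCA12 by 1.30 ± 0.25 (adjusted p = 0.00171) at 0.101 than at 0.03 µM (0.230% of all genes were higher). ABCA12, a lipid transporter, had 6.89, 6.14 and 6.49 at 0.101 µM and 5.50, 5.16 and 4.95 at 0.03 µM. The ABCA12 groups did not overlap.

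At 24 h the median member changed by 1.30 under doxorubicin 0.101 µM, 0.66 under camptothecin 0.31 µM, 0.90 under etoposide 0.812 µM, 0.83 under mitomycin C 2.56 µM (1.28 without the low-signal arrays) and 0.91 under methotrexate, and fewer members passed the test in the fit of all arrays than at 6 h for most compounds. Doxorubicin at 0.101 µM raised 21 members and lowered 0 (3.00% of all genes rose), and 30 without the low-signal arrays (15.9% of all genes rose). Doxorubicin at 0.03 µM raised 7 (0.493% of all genes rose), and 30 without those arrays (11.4% of all genes rose). Camptothecin at 0.31 µM raised 12 (2.80% of all genes rose) and lowered 1 (5.41% of all genes fell). Leaving the low-signal arrays out gave 24 rises (18.6% of all genes rose) and 1 fall (15.4% of all genes fell). Camptothecin at 0.01 µM raised 14 (0.981% of all genes rose), and 30 without the low-signal arrays (9.75% of all genes rose). Etoposide raised 9 at 0.811 µM (0.976% of all genes rose) and 11 at 0.812 µM (0.927% of all genes rose). Without those arrays etoposide raised 28 (10.3% of all genes rose) and 31 (11.4% of all genes rose). Mitomycin C at 0.553 µM raised 12 (0.998% of all genes rose), and 31 without the low-signal arrays (10.4% of all genes rose). Without replicate 1 of the treated groups, the counts fell to 2 for doxorubicin at 0.03 µM, 7 for camptothecin at 0.01 µM, 6 for etoposide at 0.812 µM and 5 for mitomycin C at 0.553 µM.

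TP53I3, SESN1, TP53INP1, RRM2B and PHLDA3 were called higher at 24 h in all 9 comparisons of DNA-damaging compounds and methotrexate. TP53I3 showed the widest rise, with log2 levels of 12.09, 12.18 and 12.00 under doxorubicin, 10.84, 10.98 and 10.82 under camptothecin, 11.12, 11.04 and 11.33 under etoposide and 11.82, 11.07 and 11.93 under mitomycin C, against 8.57, 8.715 and 8.92 in DMSO. Every treated array of TP53I3 was more than 1 unit above the highest DMSO array. Its change was 3.35 ± 0.27 (adjusted p = 2.18e-16) under doxorubicin, 2.14 ± 0.27 (adjusted p = 2.92e-09) under camptothecin, 2.42 ± 0.27 (adjusted p = 5.39e-10) under etoposide and 2.87 ± 0.27 (adjusted p = 4.73e-13) under mitomycin C. SESN1 had 10.46, 10.51 and 10.46 under doxorubicin, 9.81, 9.90 and 9.88 under camptothecin and 9.93, 9.95 and 9.85 under etoposide, against 6.93, 7.925 and 8.16 in DMSO. The SESN1 groups were apart, with changes of 2.64 ± 0.36 (adjusted p = 8.80e-08), 2.03 ± 0.36 (adjusted p = 2.11e-05) and 2.07 ± 0.36 (adjusted p = 0.000104) for these compounds in that order. RRM2B had 11.82, 11.81 and 11.86 under doxorubicin, 10.63, 10.95 and 11.11 under camptothecin and 11.19, 11.23 and 11.26 under etoposide, against 8.73, 9.38 and 9.68 in DMSO. RRM2B was higher in all 9 of these arrays than in DMSO, by 2.52 ± 0.33 (adjusted p = 2.28e-08) under doxorubicin, 1.59 ± 0.33 (adjusted p = 0.000289) under camptothecin and 1.92 ± 0.33 (adjusted p = 7.24e-05) under etoposide.

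TP53INP1 had log2 levels at 24 h of 8.81, 8.89 and 8.86 under doxorubicin, 7.54, 8.08 and 7.91 under camptothecin and 8.34, 8.41 and 8.15 under etoposide, against 4.65, 6.23 and 6.68 in DMSO. The lowest TP53INP1 value in DMSO came from a low-signal array, and the treated arrays were above the DMSO range. Its change was 2.72 ± 0.36 (adjusted p = 3.19e-08) under doxorubicin, 1.71 ± 0.36 (adjusted p = 0.000356) under camptothecin and 2.17 ± 0.36 (adjusted p = 3.39e-05) under etoposide. With the mean of both TP53INP1 probe sets these were 1.49, 0.95 and 1.05, all still called. PHLDA3 had 11.31, 11.34 and 11.20 under doxorubicin, 10.98, 10.78 and 10.69 under camptothecin and 11.11, 11.03 and 11.09 under etoposide, against 9, 9.175 and 9.39 in DMSO. No PHLDA3 group overlapped DMSO, and the changes were 2.10 ± 0.31 (adjusted p = 5.66e-07), 1.63 ± 0.31 (adjusted p = 6.63e-05) and 1.89 ± 0.31 (adjusted p = 2.81e-05) in that order. POLH had 9.73, 9.81 and 9.72 under doxorubicin and 9.38, 9.17 and 9.14 under etoposide, against 7.36, 7.775 and 8.08 in DMSO. POLH did not overlap DMSO, and it rose by 1.96 ± 0.39 (adjusted p = 0.000269) under doxorubicin and 1.43 ± 0.39 (adjusted p = 0.0388) under etoposide, a call lost without replicate 1 or 2 of the treated groups and without DMSO replicate 2, 3, 4, 7 or 8. SERTAD1 had 10.79, 10.89 and 10.88 under camptothecin, against 8.82, 9.01 and 9.07 in DMSO, a change of 1.87 ± 0.28 (adjusted p = 4.33e-07) with the groups well apart. The ASCC3 probe set used was low under camptothecin 0.31 µM, at 6.41, 6.87 and 6.19, against 8.49, 8.86 and 9.21 in DMSO, a change of -2.39 ± 0.48 (adjusted p = 0.000146) with no overlap. The other 3 ASCC3 probe sets changed by 0.49, 0.40 and -0.51, and the mean of the 4 by -0.50 (adjusted p = 0.031).

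Mitomycin C at 2.56 µM and 24 h rested on arrays that disagreed. With all arrays it raised 16 members (7.77% of all genes rose) and lowered 1 (18.1% of all genes fell). Its replicate 2 was a low-signal array with an upper quartile of 6.92, and without low-signal arrays it raised 31 members (14.2% of all genes rose) and lowered 0. KDM4B was the member that turned round, with log2 levels of 9.58, 5.07 and 9.53, against 8.78, 9.05 and 9.34 in DMSO. KDM4B was above the DMSO range in replicates 1 and 3 and far below it in replicate 2, so that its change was -0.98 ± 0.34 (adjusted p = 0.0264) with all arrays and 0.55 ± 0.11 without the low-signal ones. The mean of the 4 KDM4B probe sets was not called with all arrays, at -0.38 (adjusted p = 0.08). PHLDA3 had 11.83, 10.24 and 11.76 and changed by 2.09 ± 0.31 (adjusted p = 1.03e-06), and by 2.59 without those arrays. SESN1 had 10.54, 7.75 and 10.48, with replicate 2 inside the DMSO range, and changed by 1.75 ± 0.36 (adjusted p = 0.000312), and by 2.54 without. TP53INP1 had 8.67, 5.39 and 8.69 and changed by 1.45 ± 0.36 (adjusted p = 0.00226), and by 2.34 without. POLH had 10.11, 7.13 and 10.02 and changed by 1.29 ± 0.39 (adjusted p = 0.0121), and by 2.21 without. Replicate 2 was inside the DMSO range for TP53INP1 and below it for POLH. Without replicate 1 of the treated groups neither was called, with TP53INP1 at 0.91 (adjusted p = 0.0662) and POLH at 0.78 (adjusted p = 0.195), nor was TP53INP1 without replicate 3, at 0.90 (adjusted p = 0.094), while POLH was then at 0.82. The mean of both TP53INP1 probe sets changed by 0.80 with all arrays. SERTAD1 had 10.72, 9.47 and 10.77 and changed by 1.34 ± 0.28 (adjusted p = 0.000366), and by 1.77 without. PHLDA3, SERTAD1 and TP53I3 stayed above every DMSO array in all 3 replicates, and TP53I3 changed by 3.15 without the low-signal arrays.

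Methotrexate, which hardly moved the members at 6 h, raised 16 of them at 24 h (3.42% of all genes rose). The labels use replicate numbers more than once among its 6 arrays, so that these are 6 separate samples is not certain. TP53I3 was the member called at 6 h, with log2 levels of 8.67, 8.785 and 9.12 (lowest, median and highest of 6) under methotrexate, against 8.54, 8.62 and 8.75 in DMSO, overlapping ranges and a change of 0.20 ± 0.05 (adjusted p = 0.0312). That call was lost without DMSO replicate 6 or 8, and without replicate 1 or 3 of the treated groups, which left 0 members. At 24 h TP53I3 had 10.73, 10.89 and 11.03 under methotrexate, against 8.57, 8.715 and 8.92 in DMSO, a change of 2.16 ± 0.21 (adjusted p = 2.56e-12). TP53INP1 had 8.46, 8.52 and 8.82 under methotrexate, against 4.65, 6.23 and 6.68 in DMSO, a change of 2.43 ± 0.29 (adjusted p = 9.06e-10), or 1.17 with the mean of both TP53INP1 probe sets. RRM2B had 11.57, 11.615 and 11.74, against 8.73, 9.38 and 9.68 in DMSO, and rose by 2.33 ± 0.26 (adjusted p = 1.77e-10). All 6 methotrexate arrays lay above all 8 DMSO arrays in each of these 3 genes at 24 h. PHLDA3 had 11.43, 11.465 and 11.53, against 9, 9.175 and 9.39 in DMSO, and rose by 2.29 ± 0.25 (adjusted p = 5.06e-11). POLH had 9.82, 9.925 and 9.98, against 7.36, 7.775 and 8.08 in DMSO, and rose by 2.11 ± 0.31 (adjusted p = 7.11e-07). SESN1 had 9.77, 9.93 and 9.98, against 6.93, 7.925 and 8.16 in DMSO, and rose by 2.07 ± 0.29 (adjusted p = 1.50e-07). These 3 genes did not overlap DMSO either. Without the low-signal arrays methotrexate raised 26 members (15.0% of all genes rose) and lowered 1 (20.6% of all genes fell), which was SPATA18, a mitochondrial quality control gene, at -0.29 ± 0.12.

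The change of effect between 6 and 24 h was tested as a difference of differences over all 282 arrays. Greater and smaller refer to the signed log2 change against DMSO, so a rise that turned into a fall counts as smaller. Methotrexate had a greater effect at 24 h in 16 members (2.01% of all genes were greater), and in 10 when its arrays of the same replicate number were averaged. It was led by RRM2B at 2.54 ± 0.29 (adjusted p = 1.55e-12) and TP53INP1 at 2.49 ± 0.34 (adjusted p = 6.13e-09). Mitomycin C at 2.56 µM had a greater effect in 8 (2.91% of all genes were greater), led by TP53I3 at 2.44 ± 0.34 (adjusted p = 1.75e-08). Doxorubicin at 0.101 µM had a greater effect in TP53I3 by 2.29 ± 0.34 (adjusted p = 2.17e-07), RRM2B by 1.48 ± 0.37 (adjusted p = 0.0109) and ABCA12 by 1.44 ± 0.31 (adjusted p = 0.0014), so in 3 members (0.669% of all genes were greater). Etoposide at 0.812 µM had a greater effect in 1, TP53I3 by 1.44 ± 0.34 (adjusted p = 0.0474), among few genes in all (0.0713% of all genes were greater). This call was lost when any 1 replicate number was left out. Camptothecin at 0.31 µM had a greater effect in 0 members by limma (0.482% of all genes were greater), and 6 members passed an unadjusted p below 0.05 in either direction. Without replicate 1 of the treated groups the counts were 10 for methotrexate, 4 for mitomycin C and 1 for doxorubicin, and without replicate 2 they were 15 for methotrexate, 15 for mitomycin C and 5 for doxorubicin. Without replicate 3 they were 5 for mitomycin C and 2 for doxorubicin. Elsewhere mitomycin C at 0.553 µM had a greater effect in 5 members (0.269% of all genes were greater), doxorubicin at 0.03 µM in 1 (0.0713% of all genes were greater) and camptothecin at 0.01 µM in 1 (0.0932% of all genes were greater). Trichostatin A had a greater effect in 1 (3.33% of all genes were greater) and a smaller one in 1 (2.78% of all genes were smaller) at 0.114 µM, and a greater effect in 1 (3.57% of all genes were greater) and a smaller one in 2 (6.24% of all genes were smaller) at 0.143 µM. The trichostatin A shares were near those of all genes.

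Without the low-signal arrays, the effect was greater at 24 h in 26 members for methotrexate (11.3% of all genes were greater), 31 for mitomycin C (9.17% of all genes were greater), 24 for doxorubicin (9.05% of all genes were greater) and 19 for etoposide (3.69% of all genes were greater). For camptothecin 14 were smaller (11.3% of all genes were smaller) and 4 greater (12.6% of all genes were greater), the second a share near that of all genes. The 4 greater were TP53I3 by 0.90 ± 0.14, KDM4B by 0.59 ± 0.19, RRM2B by 0.48 ± 0.17 and SUSD6 by 0.43 ± 0.10. Among the 14 smaller, IER5 changed by -1.04 ± 0.15, TP53INP1 by -1 ± 0.24 and TIGAR by -0.97 ± 0.11.

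**Figure D4:**
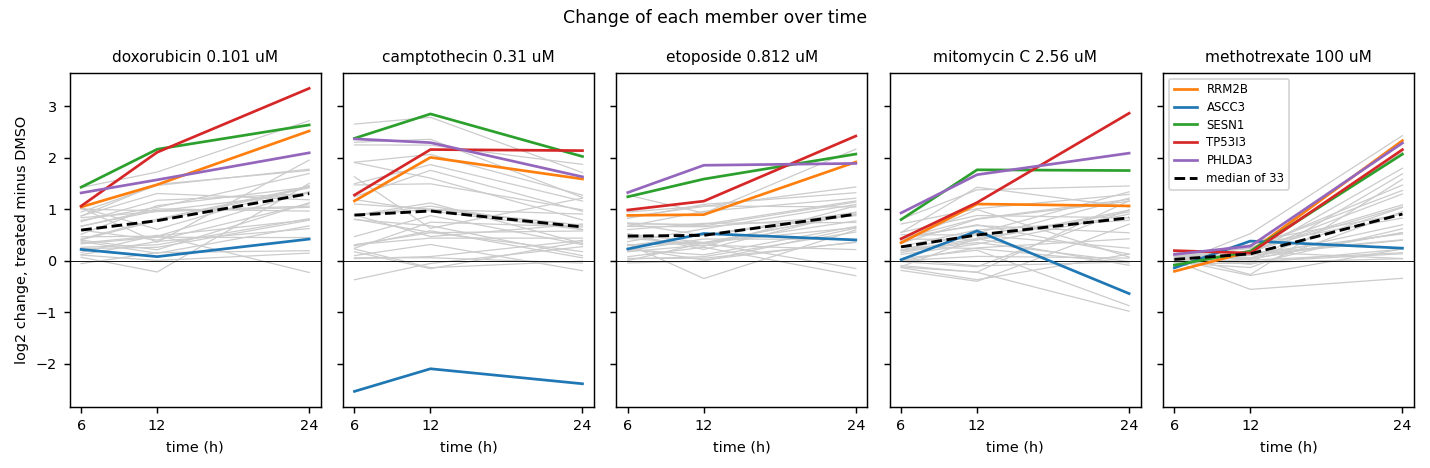
Log2 change against DMSO of the same time (vertical axis) at 6, 12 and 24 h for 33 members (grey lines), with 5 named genes in colour and the median as a dashed line, under 5 compounds, all arrays included. Lines climb to 24 h under doxorubicin and, from near 0 at 12 h, under methotrexate, and the ASCC3 probe set used stays below -2 under camptothecin.

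At 12 h the members again rose under the DNA-damaging compounds and not under methotrexate. Camptothecin at 0.31 µM raised 16 members (4.85% of all genes rose), and 26 without the low-signal arrays (16.1% of all genes rose). Doxorubicin at 0.101 µM raised 11 (1.54% of all genes rose), from 3 arrays that were all low-signal, while doxorubicin at 0.03 µM raised 2 with all arrays (0.0493% of all genes rose) and 19 without the low-signal ones (0.713% of all genes rose). Mitomycin C at 2.56 µM raised 4 (0.126% of all genes rose), and 18 without those arrays (1.59% of all genes rose). Etoposide at 0.812 µM raised 3 (0.104% of all genes rose). Leaving out 1 replicate number of the treated groups moved the counts most for 3 groups. Without replicate 1 they were 4 for doxorubicin 0.101 µM, 1 for etoposide and 1 for mitomycin C, and without replicate 2 they were 18, 11 and 14 in the same order. Without replicate 3 the counts for etoposide and mitomycin C were 1 each. Of the other DNA-damaging groups, camptothecin at 0.01 µM raised 6 (0.17% of all genes rose), and 21 without the low-signal arrays (1.6% of all genes rose). Etoposide at 0.811 µM raised 8 (0.214% of all genes rose), and 22 without those arrays (2.19% of all genes rose). Mitomycin C at 0.553 µM raised 0 (0% of all genes rose), and 12 without them (0.548% of all genes rose). Methotrexate called 0 members by limma, and 0 at an unadjusted p below 0.05. TP53I3 had log2 levels of 10.48, 10.57 and 10.55 under doxorubicin 0.101 µM and 8.47 to 8.68 over 6 arrays under methotrexate, against 8.05, 8.435 and 8.80 in DMSO. The doxorubicin arrays lay above DMSO (2.11 ± 0.31, adjusted p = 2.35e-06), and the methotrexate arrays lay within it. ASCC3 had 6.06, 5.55 and 6.14 under camptothecin, against 6.59, 8.275 and 8.58 in DMSO, a change of -2.10 ± 0.33 (adjusted p = 1.38e-06) with no overlap. Geldanamycin at 0.001 µM lowered 17 members (22.7% of all genes fell) with all arrays and 0 without its 1 low-signal array and those of DMSO (0% of all genes fell).

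Under compounds with other mechanisms, members were called in both directions at 6 h, and for cycloheximide and H-7 the share that fell was no larger than that of all genes. Cycloheximide, which blocks translation elongation, raised 18 at 5 µM (16.5% of all genes rose) and lowered 5 (16.8% of all genes fell). H-7, a broad kinase inhibitor, raised 21 at 20.2 µM (23.0% of all genes rose) and lowered 8 (27% of all genes fell). Trichostatin A, an inhibitor of histone deacetylases, raised 13 at 0.143 µM (22.3% of all genes rose) and lowered 11 (22.4% of all genes fell). TIGAR had the widest change among the called members under each of these 3 in the probe set used. TIGAR had log2 levels of 10.56, 10.47 and 10.45 under cycloheximide, 11.14, 11.30 and 11.06 under H-7 and 10.53, 10.53 and 10.61 under trichostatin A, against 9.03, 9.24 and 9.34 in DMSO. All 9 arrays were above DMSO, with changes of 1.28 ± 0.06 (adjusted p = 1.86e-32), 1.95 ± 0.06 (adjusted p = 4.66e-46) and 1.34 ± 0.06 (adjusted p = 1.40e-34) in that order. With the mean of both TIGAR probe sets the changes were 0.54 under cycloheximide and 0.68 under trichostatin A. The falls differed by compound, with ZMAT3 at -1.13 under cycloheximide, KDM4B at -1.38 and PLK2 at -1.35 under H-7, and PHLDA3 at -0.97 and DDB2 at -0.88 under trichostatin A. PHLDA3 and DDB2 rose under every DNA-damaging compound at the same time.

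Rapamycin, the mTORC1 inhibitor, raised 10 at 22 µM (13% of all genes rose) and lowered 6 (13.6% of all genes fell). SERTAD1 had 8.88, 8.72 and 8.97 under rapamycin, against 9.33, 9.505 and 9.53 in DMSO, a change of -0.62 ± 0.06 (adjusted p = 3.26e-15) without overlap. Geldanamycin, an HSP90 inhibitor, raised 2 at 0.032 µM (6.73% of all genes rose) and lowered 5 (9.76% of all genes fell). PLK3 had 7.67, 8.02 and 7.81 under geldanamycin, against 8.19, 8.5 and 8.71 in DMSO, a change of -0.67 ± 0.08 (adjusted p = 1.56e-11) without overlap. The mitotic kinesin inhibitor monastrol raised 6 at 100 µM (4.61% of all genes rose) and lowered 2 (2.99% of all genes fell). TIGAR had 9.59, 9.51 and 9.53 under monastrol, against 9.03, 9.24 and 9.34 in DMSO, above its range by a small margin (0.33 ± 0.06, adjusted p = 7.21e-05), and the mean of both TIGAR probe sets, at 0.01, was not called (adjusted p = 0.942). The myosin II inhibitor blebbistatin raised 3 at 100 µM (1.67% of all genes rose) and lowered 1 (0.921% of all genes fell). DRAM1 had 8.78, 8.83 and 8.90 under blebbistatin, against 8.34, 8.42 and 8.59 in DMSO, above its range (0.40 ± 0.09, adjusted p = 0.0025). Without 1 replicate number of the treated groups, blebbistatin raised 1 (without replicate 1 or 2), monastrol raised 3 (without replicate 1) and lowered 0 (without replicate 2), and geldanamycin raised 0 (without replicate 3) and lowered 3 (without replicate 1). The tubulin poison vincristine at 0.01 µM and the anthracycline aclacinomycin A at 0.105 µM called 0 members by limma at 6 h, with 8 and 3 at an unadjusted p below 0.05 in either direction.

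Untreated medium differed from DMSO at 6 h. Against DMSO, 6 members were higher in medium (11.7% of all genes rose) and 11 lower (13.8% of all genes fell). SERTAD1 had log2 levels of 8.45 and 8.57 in medium, against 9.33, 9.505 and 9.53 in DMSO, and TP53I3 had 9.39 and 9.23 in medium, against 8.54, 8.62 and 8.75 in DMSO. Both genes were outside the DMSO range in each medium array, lower by -0.97 for SERTAD1 and higher by 0.68 for TP53I3.

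**Figure D5:**
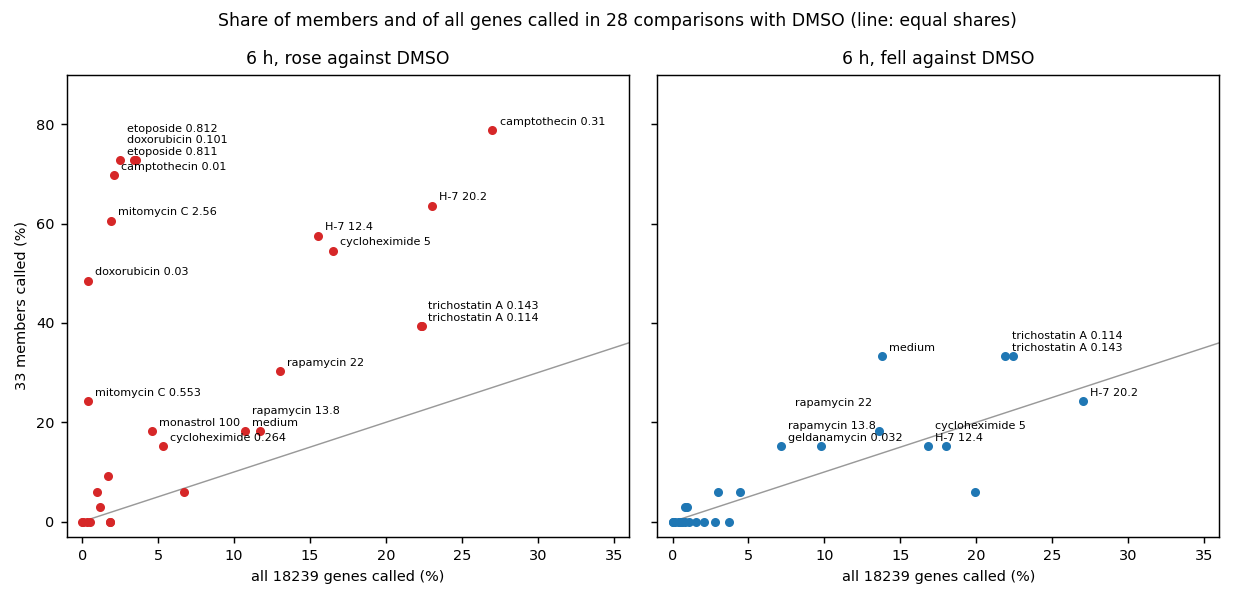
Share of the 33 members called (vertical axis, %) against the share of all 18239 genes called (horizontal axis, %) in 28 comparisons with DMSO at 6 h, for rises (left) and falls (right); the line marks equal shares and concentrations are in µM. Doxorubicin, etoposide, mitomycin C and low-dose camptothecin lie high at the left edge, with under 4% of all genes rising, while camptothecin 0.31, H-7, cycloheximide and trichostatin A lie further right.

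At 24 h, H-7 at 20.2 µM raised 3 members (7.17% of all genes rose) and lowered 4 (13.5% of all genes fell). In the fit that leaves out low-signal arrays it raised 16 (9.73% of all genes rose) and lowered 4 (11.1% of all genes fell). Its effect was smaller at 24 h than at 6 h in 9 members (8.27% of all genes were smaller), led by ZMAT3 at -2.45 ± 0.58 (adjusted p = 0.00175) and TIGAR at -2.34 ± 0.33 (adjusted p = 1.41e-08). This count was 18 without replicate 2 and 1 without replicate 3 of the treated groups. Replicate 3 of H-7 at 20.2 µM was its low-signal array at 24 h, with an upper quartile of 6.96. The falls at 24 h were 8 without replicate 1, 10 without replicate 2 and 0 without replicate 3. H-7 at 12.4 µM lowered 17 members (31.9% of all genes fell), from 3 arrays that were all low-signal. Its signed change was smaller at 24 h in 20 (24.2% of all genes were smaller) and greater in 1 (21.3% of all genes were greater). The median member changed by 0.27 at 6 h and by -0.64 at 24 h, so this was a turn from rise to fall. Cycloheximide at 5 µM, with 2 of 3 arrays low-signal, raised 3 (5.97% of all genes rose) and lowered 4 (7.52% of all genes fell). Its effect was smaller at 24 h in PLK3 by -2.18 ± 0.38, POLH by -1.73 ± 0.46 and IER5 by -1.52 ± 0.38 (adjusted p = 2.33e-05, 0.0146 and 0.00812), which made 3 members (2.65% of all genes were smaller). That count was 1 without replicate 1 and 6 without replicate 2 of the treated groups, and the falls at 24 h were 2 without replicate 1.

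Vincristine and blebbistatin moved the members at 24 h in the fit without low-signal arrays. With all arrays, vincristine at 0.01 µM raised 0 by limma (0.0219% of all genes rose) and blebbistatin at 100 µM raised 0 (0.0329% of all genes rose), with 8 higher at an unadjusted p below 0.05 for each. Neither group held a low-signal array, but 1 of the 8 DMSO arrays and other groups that shared the spread did. Without the low-signal arrays, vincristine raised 24 and lowered 0 (3.64% of all genes rose), and blebbistatin raised 24 and lowered 0 (5.67% of all genes rose). RRM2B had log2 levels of 10.63, 10.48 and 10.38 under vincristine and 10.60, 10.46 and 10.24 under blebbistatin, against 8.73, 9.38 and 9.68 in DMSO. TP53I3 had 9.45, 9.45 and 9.54 under vincristine and 9.85, 10.00 and 9.95 under blebbistatin, against 8.57, 8.715 and 8.92 in DMSO. In both genes all treated arrays were above the DMSO range. RRM2B rose by 1.11 ± 0.12 under vincristine and 1.04 ± 0.12 under blebbistatin in that fit, and TP53I3 by 0.75 ± 0.08 and 1.21 ± 0.08. FAM210B, a mitochondrial protein gene, had 9.52, 9.53 and 9.42 under blebbistatin, against 8.38, 8.65 and 8.84 in DMSO, and rose by 0.85 ± 0.08 without overlap. Aclacinomycin A at 0.105 µM, an anthracycline like doxorubicin, called 0 members at 24 h with or without the low-signal arrays, and 0 at an unadjusted p below 0.05 in the fit of all arrays. RRM2B stood at 9.51, 9.58 and 9.44 under aclacinomycin A, within the DMSO range.

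A list of 27 other p53 targets (among them CDKN1A, which halts the cell cycle, and MDM2) served for comparison, 24 of which were measured. At 6 h it had 18 rises and 0 falls under doxorubicin 0.101 µM with a median change of 0.56, 22 and 0 under camptothecin 0.31 µM with 0.93, 16 and 0 under etoposide 0.812 µM with 0.43, 12 and 0 under mitomycin C 2.56 µM with 0.23, and 0 rises and 1 fall under methotrexate with -0.04. These medians stood beside 0.59, 0.89, 0.48, 0.27 and 0.02 for the 33 members. CDKN1A rose by 1.11 ± 0.04 and MDM2 by 1.27 ± 0.10 under doxorubicin (adjusted p = 2.23e-40 and 2.03e-19). At 24 h 17 of the 24 rose under methotrexate and 0 fell, with a median of 1.26 (3.42% of all genes rose). Of 10 measured regulators of p53, such as the checkpoint kinases and MDM4, 1 rose and 6 fell under camptothecin 0.31 µM at 6 h with a median of -0.44. Under doxorubicin 0.101 µM their median was -0.06, and limma called 0, with 0 higher and 2 lower at an unadjusted p below 0.05. Of 3 T cell, 3 myeloid, 3 fibroblast and 3 epithelial markers, limma called 0 under doxorubicin at 6 h, with 0 at an unadjusted p below 0.05.

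For 24 members the array holds further probe sets, 48 in all. Of these, 45 changed in the same direction as the probe set used under doxorubicin 0.101 µM at 6 h and 47 at 24 h. Under camptothecin 0.31 µM 42 did so at 6 h and 38 at 24 h. RRM2B had the most, with 9 probe sets.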

How the data were processed

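RNA from OCI-Ly3 wells was measured on GeneChip HT HG-U219 arrays. The values are log2 intensities that the authors deposited after RMA (background correction, normalisation and summary of probes), per the submitters' processing notes, with the version not given in the sources used here. The upper quartile differed between arrays of 12 and 24 h, so which arrays were normalised together is not known. The gene list, the comparison lists and the limits for low-signal arrays were chosen with earlier results of these data known.

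Of the probe sets with 1 gene, the probe set brightest on average across the series represented the gene (18239 genes). limma 3.58.1 in R 4.3.3, with the package data.table (version 1.17.8), fitted a mean per group over the 94 arrays of a time, with a trended prior variance, and p-values were adjusted by Benjamini-Hochberg within a comparison over all genes. Calls used an adjusted p below 0.05. The change between times was tested in 1 fit of 282 arrays. Values in every array are given for the members with the 6 largest rises and 3 largest falls among those called in the main comparisons, and for the member with the largest change in each other compound. Other members are named with their changes. Errors are standard errors of the fit. The number of arrays limits the precision. Promoters were searched and figures drawn with Python 3.11.15, numpy 2.4.6, pandas 2.3.3 and matplotlib 3.10.9. The fits were tested on simulated data. Alternatives were quantile normalisation, a replicate block, fits of only the arrays compared, the mean of all probe sets, a filter on low genes, no trend, averaged methotrexate arrays, and leaving out low-signal arrays or each replicate.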

Additional observations from a re-analysis of the deposited data

Results flagged for a closer look

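Single arrays stood apart from their groups in 5 of 31 tested sets of values (1 gene in a DMSO group of 8 or a methotrexate group of 6 arrays). For 1 set, chance gives about 1 in 20. The sets share arrays and are not independent, so the 2 shares cannot be compared directly. At 6 h, DMSO replicate 7 was low for DDB2, at 9.82 with a group median of 10.125, and DMSO replicate 2 was low for POLH, at 7.25 with a group median of 7.70. At 24 h, DMSO replicate 7, a low-signal array, was low for SESN1, at 6.93 with a group median of 7.925, and for TP53INP1, at 4.65 with a group median of 6.23. Under methotrexate at 24 h, an array numbered 2 was high for TP53INP1, at 8.82 with a group median of 8.52.

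The effect of a compound differed between 24 and 6 h, by limma's test of the difference, in members of several groups. Among the higher concentrations it was greater at 24 h in 16 members under methotrexate (2.01% of all genes), 8 under mitomycin C 2.56 µM (2.91%), 3 under doxorubicin 0.101 µM (0.669%) and 1 under etoposide 0.812 µM (0.0713%). By the signed change it was smaller at 24 h in 9 members under H-7 20.2 µM (8.27% of all genes) and 3 under cycloheximide 5 µM (2.65%). At 24 h, 1 of the 3 H-7 arrays and 2 of the 3 cycloheximide arrays were low-signal. Both counts moved when a replicate number was left out, as given with the main results. Trichostatin A 0.143 µM had 1 greater (3.57%) and 2 smaller (6.24%), shares near those of all genes. The etoposide call was lost when any 1 replicate number was left out.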

How the results depend on the processing

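Of 66 changes with values in every array, 66 kept direction and call under quantile normalisation, without the trend and without the 40% of genes lowest in mean, 63 with the mean of all probe sets, 61 with only the arrays compared and 61 with the replicate block. The reversal was KDM4B under mitomycin C 2.56 µM at 24 h, at 0.55 with low-signal arrays left out, and at 0.51 without replicate 2, against -1.744 without replicate 1, of the treated groups. Treated arrays were also set against DMSO arrays of the same replicate number. In 0 of 27 comparisons at 6 h, 1 at 12 h and 0 at 24 h did these deviate together for every number. Pairing among the treated groups was not examined, so the numbers may still pair those arrays. With the replicate block, members that rose at 24 h were 7 (camptothecin 0.01), 2 (doxorubicin 0.03), 5 (etoposide 0.812) and 5 (mitomycin C 0.553), those that rose at 6 h were 0 (blebbistatin 100), 1 (geldanamycin 0.032) and 0 (methotrexate), those that fell were 1 (H-7 20.2, 24 h) and 1 (monastrol 100, 6 h), and the effect of etoposide was greater at 24 h in 0 (concentrations in µM throughout).

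Without low-signal arrays, members that rose at 24 h were 30 (camptothecin 0.01), 24 (camptothecin 0.31), 30 (doxorubicin 0.03), 31 (etoposide 0.812), 26 (methotrexate), 31 (mitomycin C 0.553) and 31 (mitomycin C 2.56), and those that rose at 12 h were 26 (camptothecin 0.31) and 18 (mitomycin C 2.56). The shares of all genes for these counts are given with the main results. Etoposide 0.812 at 12 h and cycloheximide 5 at 24 h had 1 array left, so their counts are not given. Effects without the low-signal arrays were greater at 24 h in 4 (camptothecin), 24 (doxorubicin), 19 (etoposide), 26 (methotrexate) and 31 (mitomycin C). Camptothecin 0.31 at 24 h was then higher in 1 (14.7% of all genes) and lower in 12 (12.0%) than 0.01. It was higher in 1 (15.1% of all genes) and lower in 13 (11.3%) than etoposide. Doxorubicin 0.101 at 12 h had no array left.

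For the other alternative fits, the replicate block and left-out replicates among them, only members were counted. The share of all genes called is not at hand there, so a changed count may not be particular to the members. Quantile normalisation gave 11 rises for doxorubicin 0.03 at 24 h, 7 for etoposide at 12 h, 2 falls for cycloheximide at 24 h, 1 member higher under camptothecin 0.31 than 0.01 and 1 than etoposide at 24 h, and greater effects at 24 h in 6 (doxorubicin), 2 (etoposide) and 15 (mitomycin C). With only the arrays compared, rises at 24 h were 30 (camptothecin 0.01), 22 (camptothecin 0.31), 27 (doxorubicin 0.03), 30 (etoposide 0.812), 26 (methotrexate), 28 (mitomycin C 0.553) and 8 (mitomycin C 2.56), rises at 12 h were 18 (doxorubicin 0.101) and 5 (etoposide), the 6 h rise under methotrexate was 0 and falls under H-7 at 24 h were 0. The mean of all probe sets gave rises of 5 (etoposide, 12 h), 17 (etoposide, 24 h), 7 (mitomycin C 2.56, 12 h), 4 (geldanamycin, 6 h), 3 (methotrexate, 6 h) and 3 (monastrol, 6 h), and a greater effect of etoposide in 2. The filter gave 2 rises under methotrexate at 6 h and a greater effect of mitomycin C in 5. Averaging methotrexate arrays of a number gave 0 rises at 6 h and greater effects at 24 h in 10.

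Leaving out 1 replicate at a time gave these ranges. Rises at 24 h were 7 to 14 (camptothecin 0.01), 2 to 7 (doxorubicin 0.03), 6 to 11 (etoposide 0.812) and 5 to 14 (mitomycin C 0.553). Rises at 12 h were 4 to 18 (doxorubicin 0.101), 1 to 11 (etoposide) and 1 to 14 (mitomycin C 2.56). Rises at 6 h were 3 to 9 (mitomycin C 0.553), 1 to 3 (blebbistatin), 0 to 3 (geldanamycin), 0 to 1 (methotrexate) and 3 to 6 (monastrol). Falls were 1 to 2 (camptothecin 0.31, 6 h), 3 to 6 (geldanamycin, 6 h), 0 to 3 (monastrol, 6 h), 2 to 4 (cycloheximide, 24 h) and 0 to 10 (H-7 20.2, 24 h). Camptothecin 0.31 at 24 h was higher in 0 to 1 and lower in 0 to 3 than 0.01, and higher in 0 to 1 and lower in 1 to 3 than etoposide. Effects were greater at 24 h in 1 to 5 (doxorubicin), 0 to 0 (etoposide), 10 to 16 (methotrexate) and 4 to 15 (mitomycin C), and smaller in 1 to 6 (cycloheximide) and 1 to 18 (H-7). The causes were not tested. Low-signal arrays limit what the 12 and 24 h comparisons can show, and members near the lower end of the array's range may have changes that these probe sets did not measure.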
